A study of Mus musculus with 14 samples.

Results

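Lungs of mice given resiniferatoxin (RTX) into the spinal canal were compared with lungs of mice given saline by the same route. The members are all libraries of that experiment: 5 of the 14 in the series, 3 after RTX and 2 after saline vehicle, with every gene of their shared table. All 5 libraries came from lung of wild-type C57BL/6 mice. The RTX group received 25 ng per mouse per day for 2 days, injected intrathecally in the lumbar region, and the vehicle group received 10 μl of saline. Both groups also received Alternaria alternata extract, a fungal allergen preparation, through the nose at 2 mg per dose in 40 μl on 4 days, so no library of the experiment shows an unchallenged lung. The labels give no age or sex, and they do not say whether libraries of a group came from separate mice, so the p-values measure the spread between these libraries, which may be technical. The other 9 libraries belong to a bone marrow chimera experiment (4 libraries, wild-type marrow in irradiated recipients that were wild-type or carried human JAK1 GOF, with the same allergen) and to an experiment with subcutaneous RTX (5 libraries: 3 after 30, 70 and 100 μg/kg on successive days and 2 after 100 μl of saline, in wild-type C57BL/6 mice with the same allergen). The series describes the intrathecal injection as a selective loss of spinal visceral afferents and the subcutaneous course as a loss of both spinal and vagal afferents.

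RTX is a plant-derived agonist of TRPV1, the heat- and capsaicin-gated cation channel of nociceptive sensory neurons. Strong activation of the channel overloads these neurons with calcium and removes them or their endings. Spinal afferents of the lung have their cell bodies in dorsal root ganglia and release peptides such as CGRP, which act on epithelium, vessels and immune cells. Alternaria extract releases alarmins such as IL-33 from the airway epithelium, which drive group 2 innate lymphoid cells to make IL-5 and IL-13, with eosinophils and mucus as the outcome. Because the cell bodies lie outside the lung, lung RNA is no check of the ablation. Trpv1 itself had 0 and 0.317 CPM (counts scaled to a library total of 1e+06) in the 2 vehicle libraries and 0.0454, 0.0987 and 0.041 CPM in the 3 RTX libraries. In 4 of the 5 libraries this was below the floor of 3 counts, which corresponded to 0.123 to 0.148 CPM. Trpv1 was too low to be tested.

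The libraries held 20265877 to 24393000 counts over 23714 to 24084 genes. They carried the markers of lung: Sftpc (surfactant protein C of alveolar type 2 cells) was at 6844 CPM in the lowest of the 5 libraries and Scgb1a1 (secretoglobin of club cells) at 7032 CPM. The 3 RTX and 2 vehicle libraries also differed in a pair of trace transcripts. Rps3a2, a processed pseudogene of a ribosomal protein gene (chromosome 14, 88123017 to 88123808 on the minus strand, GRCm38), was at 5.0 and 3.81 CPM after vehicle and at 0.0454, 0.0987 and 0.123 CPM after RTX. Hmga2, an embryonic chromatin protein, was at 0.50 and 1.09 CPM after vehicle and at 6.17, 10.9 and 10.5 CPM after RTX. Elsewhere in the series this pair of transcripts split libraries within groups. Libraries with Rps3a2 above 2 CPM are called state A. Among the rest, those with Hmga2 above 2 CPM are called state B and those without it state C. Both intrathecal vehicle libraries were state A and all 3 intrathecal RTX libraries were state B, so treatment and library state cannot be told apart within this experiment. State A also occurred in replicate 1 of the wild-type chimeras and in replicates 2 and 3 of subcutaneous RTX. Each lay beside a library of the same group that was not state A. That library was state B in the chimeras but state C in subcutaneous RTX. Only the chimera pair thus matches the intrathecal split of state A against state B.

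Of 17360 genes tested, 54 passed a Benjamini-Hochberg adjusted p threshold of 0.05 in edgeR's quasi-likelihood test, a background of 0.311% of genes. They comprised 19 genes that were higher after RTX (0.109%) and 35 that were lower (0.202%). At an unadjusted p under 0.05, the shares were 5.85% for higher and 5.63% for lower genes. The 2 groups were free of overlap in 30.3% of genes. Of the 54 genes, 3 carry predicted-gene or pseudogene names (Rpl3-ps1, Gm37913 and Gm20390) and 51 are named genes. For 23 of the 54 genes (42.6%), all 3 of the other state A libraries lay on the vehicle side of the library of their own group that was not state A, against 28.1% of all genes tested. With a mean difference of at least 0.3 on the log2 scale this held for 22 of the 54 genes (40.7%), against 8.39% of all genes. In this mean the chimera pair had the same weight as both differences within subcutaneous RTX together. Rps3a2 is counted in both the 23 and the 22, an outcome fixed by the definition of state A. This comparison within the other groups was chosen after the data had been seen.

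**Figure D1:**
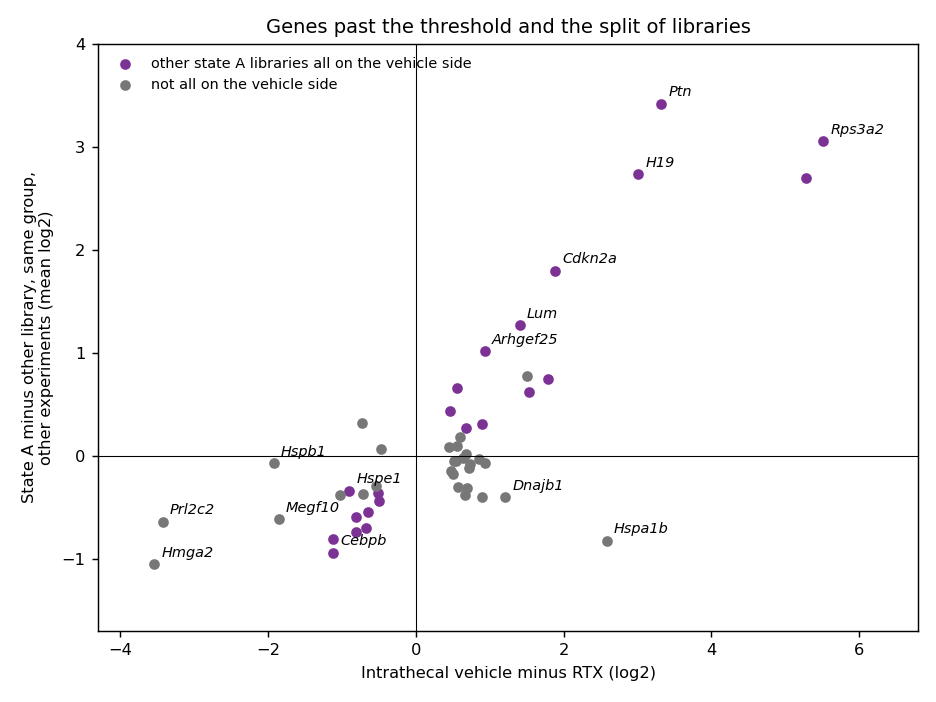
Each point is a gene past the threshold. The x axis gives the intrathecal difference, vehicle minus RTX, and the y axis the mean difference in the other experiments between a state A library and the library of the same group that was not state A, both on the log2 scale. Ccl21b, Ccl21d and Gm37913, listed at 0 in all libraries of 1 group, are left out. Ptn, H19, Cdkn2a, Lum and Arhgef25 lie above 0 on both axes, so they were also higher in the state A libraries elsewhere. Hspb1, Hspa1b and Dnajb1 lie near or below 0 on the y axis.

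Molecular chaperones changed in opposite directions. Hspb1 (HSP27, a small heat shock protein that holds unfolded proteins) and Hspe1 (HSP10, the lid of the mitochondrial HSP60 chamber) rose, while the cytosolic HSP70 gene Hspa1b and the J-domain co-chaperones Dnaja1 and Dnajb1 fell, together with the HSP90 co-chaperone Chordc1 and the HSP70 exchange factor Bag3. All of these genes are known to be induced by heat shock factor 1, a transcription factor that binds repeats of the letters GAA in alternating orientation. Promoters of genes from both directions are shown to let their heat shock elements be compared. Each is the stretch of 250 bases upstream of a RefSeq start site (GRCm38.p6), 5′ to 3′ on the gene's own strand, with matches to GAANNTTC or TTCNNGAA in capitals. Each motif is its own reverse complement, so 1 search covers both strands, and matches of the 2 motifs can overlap.
Hspb1 (rose; chr5:135887669-135887918, plus strand): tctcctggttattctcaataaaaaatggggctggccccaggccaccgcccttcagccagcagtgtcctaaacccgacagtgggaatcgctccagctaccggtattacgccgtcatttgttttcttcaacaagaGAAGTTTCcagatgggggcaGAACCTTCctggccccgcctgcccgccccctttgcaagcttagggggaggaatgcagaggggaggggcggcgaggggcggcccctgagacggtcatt
Hspe1 (rose; chr1:55087898-55088147, plus strand): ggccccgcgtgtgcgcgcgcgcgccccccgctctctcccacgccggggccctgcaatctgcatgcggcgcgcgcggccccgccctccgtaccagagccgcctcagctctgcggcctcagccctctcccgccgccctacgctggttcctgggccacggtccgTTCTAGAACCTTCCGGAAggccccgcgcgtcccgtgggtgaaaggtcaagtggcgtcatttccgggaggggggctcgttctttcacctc
Hspa1b (fell; chr17:34959239-34959488, minus strand): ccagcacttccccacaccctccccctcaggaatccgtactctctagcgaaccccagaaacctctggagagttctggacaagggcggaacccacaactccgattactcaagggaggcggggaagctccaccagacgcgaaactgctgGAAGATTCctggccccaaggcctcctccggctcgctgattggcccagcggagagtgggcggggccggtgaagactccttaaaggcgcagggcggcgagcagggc
Dnaja1, start site 1 (fell; chr4:40722218-40722467, plus strand): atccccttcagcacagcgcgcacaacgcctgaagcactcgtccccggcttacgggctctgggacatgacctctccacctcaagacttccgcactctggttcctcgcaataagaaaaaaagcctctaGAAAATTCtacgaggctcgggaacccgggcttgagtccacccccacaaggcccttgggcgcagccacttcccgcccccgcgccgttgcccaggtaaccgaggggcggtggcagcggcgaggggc

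Hspb1 held 2 matches, Hspe1 3 overlapping ones, and Hspa1b and Dnaja1 1 each. No match was found in the same window of Dnajb1, Chordc1 or Bag3, or of the other 2 start sites of Dnaja1. Of 32851 promoters of 27025 genes in the RefSeq table, 6.69% held GAANNTTC, 7.17% held TTCNNGAA, 12.8% held either, and 0.244% held, as Hspe1 does, a TTCNNGAA whose GAA also opens a GAANNTTC. Genes with a match thus occurred on both sides. A match describes letters and is no evidence of binding.

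Hspb1 (chromosome 5, 135887919 to 135889563, plus strand) was at 132 and 153 CPM in the vehicle libraries and at 598, 536 and 471 CPM in the RTX libraries. Every RTX library was far above both vehicle libraries. The fitted rise was 3.79-fold, or 1.92 ± 0.11 (SE) on the log2 scale, with an edgeR adjusted p of 0.000227. The vehicle level was no unusual one: the 9 libraries outside the experiment lay between 86.0 and 202 CPM, so the 3 RTX libraries were the highest of all 14. The other 5 small heat shock protein genes tested had log2 differences of 0.05 to 0.36 and none passed the threshold; Cryab, the α-crystallin chain of muscle and lens, had 0.09.

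Hspe1 (chromosome 1, 55088132 to 55091307, plus strand) was at 70.0 and 67.1 CPM after vehicle and at 134, 125 and 120 CPM after RTX, with no overlap. It rose 1.86-fold (log2 0.90 ± 0.08, edgeR adjusted p = 0.00184). Its partner Hspd1, the HSP60 chamber itself, lies head to head with it and overlaps it at the start, and the strand setting of the counting is not given in the sources used here, so reads from the overlap cannot be told apart. Hspd1 had 240 and 254 CPM after vehicle and 385, 302 and 333 CPM after RTX, a log2 difference of 0.48 (95% confidence interval 0.24 to 0.71) with an adjusted p of 0.124. Of 12 mitochondrial chaperone and protease genes tested, Hspe1 was the 1 that passed in edgeR, DESeq2 called Hspe1 and Hspd1, and the median of the list was 0.08 on the log2 scale against 0.01 for all genes.

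The list of heat shock factor 1 targets did not include Hspb1 and Hspe1, which were counted with the small and the mitochondrial chaperones. Among its 18 genes, 5 fell, none rose past the threshold, and the median log2 difference was -0.02. At an unadjusted p under 0.05, 8 were lower and 5 higher. Hspa1b lies on the minus strand of chromosome 17 (34956436 to 34959238). Its level was 480 and 342 CPM after vehicle against 86.7, 66.8 and 50.5 CPM after RTX. Even the lower vehicle library was far above the highest RTX library. The fall was 5.98-fold (log2 -2.58 ± 0.26, edgeR adjusted p = 0.0449), and it passed the threshold in 2 of 5 fits that left out a library. Hspa1a, a neighbouring copy of nearly the same sequence, had 323 and 174 CPM after vehicle and 36.5, 34.0 and 28 CPM after RTX, with an adjusted p of 0.0558. Because the counting could split reads between these copies, each value is uncertain by itself. Their sum was 803 and 517 CPM after vehicle and 123, 101 and 78.6 CPM after RTX.

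Dnaja1, the most abundant of the J-domain genes that fell, was at 659 and 625 CPM after vehicle and at 357, 355 and 311 CPM after RTX (log2 -0.90 ± 0.09, edgeR adjusted p = 0.00269). Chordc1 was at 139 and 136 CPM after vehicle and at 87.6, 84.0 and 79.7 CPM after RTX (log2 -0.70 ± 0.08, adjusted p = 0.0054). Both genes were tightly grouped within treatments, and both passed the threshold in all 5 fits that left out a library. Dnajb1, which hands clients to HSP70, was at 173 and 118 CPM after vehicle and at 64.7, 65.4 and 55.8 CPM after RTX, a fall of 1.21 on the log2 scale with an adjusted p of 0.0382. It lost the threshold when any 1 of the 3 RTX libraries was left out. Bag3 was at 87.7 and 90.3 CPM after vehicle and at 66.4, 59.2 and 63.8 CPM after RTX (log2 -0.48, adjusted p = 0.0477), and it lost the threshold whichever library was left out.

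Other members of the same response did not pass the threshold and pointed both ways. Hsp90aa1, the inducible HSP90, had 1151 and 1086 CPM after vehicle and 1701, 1432 and 1462 CPM after RTX, a log2 difference of 0.47 with an adjusted p of 0.107. Hspa8, the constitutive HSP70, had a log2 difference of -0.51 (adjusted p = 0.0874), and Dnajb4 one of -0.63 (adjusted p = 0.0855). Hsph1, an HSP110 exchange factor, had -0.07, and Stip1, which bridges HSP70 and HSP90, had 0.33. The factor itself, Hsf1, had 0.07. DESeq2 called 10 of the 18 targets, adding Hspa1a, Hspa8, Dnajb4, Hsp90aa1 and Fkbp4.

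The chaperone genes were also compared by library state in the other groups, over 3 differences of which 2 share a single library of subcutaneous RTX. In the means given, the chimera pair had the same weight as those 2 together. For 4 genes that fell, the mean difference on the log2 scale, state A minus the other library, was -0.40 for Dnaja1, -0.32 for Chordc1, -0.40 for Dnajb1 and -0.82 for Hspa1b. Hspe1, which rose, was lower in all 3 state A libraries, by a mean of -0.34, the same side as in the intrathecal vehicle libraries. In an edgeR fit of all 14 libraries without a state term, these 4 genes that fell did not pass: the adjusted p was 0.0665 for Dnaja1, 0.0812 for Chordc1, 0.0626 for Dnajb1 and 0.0741 for Hspa1b. With state as a term in that fit they passed, with Hspa1b at -3.76 and an adjusted p of 0.0179. Bag3, which also fell, did not pass with or without the term. Its differences by state in the other groups were -0.30, -0.10 and 0.13. Hspe1 passed in neither fit (adjusted p = 0.0572 without the term) and had a log2 difference of 0.48 with the term. Hspb1 passed without the term and did not pass with it (log2 1.70, adjusted p = 0.13). The part of library state in the chaperone differences was not tested within the experiment, where it cannot be told apart from treatment. Levels of inducible HSP70 also varied widely elsewhere: the summed copies ran from 64.8 to 639 CPM across the 9 other libraries, so the intrathecal vehicle libraries included the highest value of the series.

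**Figure D2:**
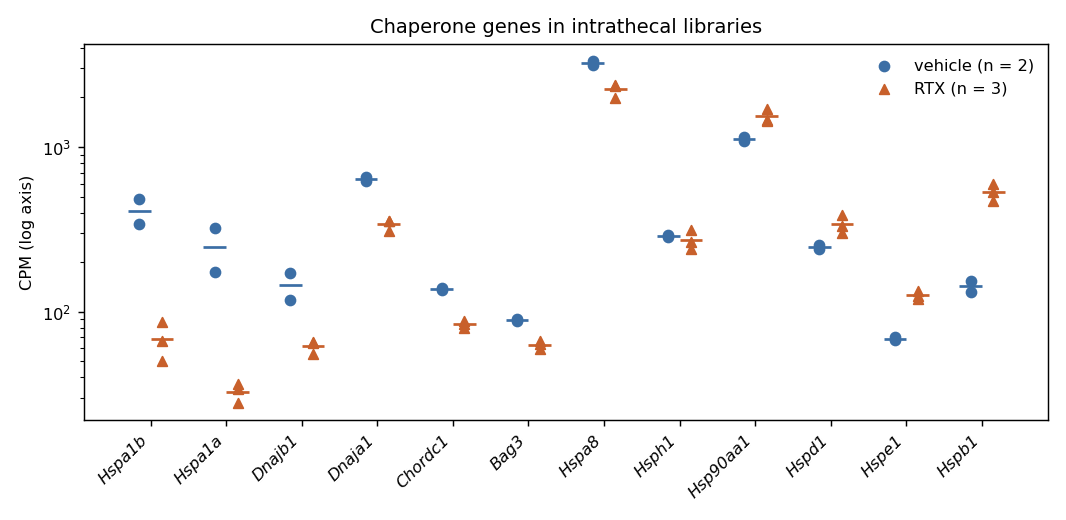
Chaperone genes in the 2 vehicle libraries (circles) and 3 RTX libraries (triangles) of the intrathecal experiment, in CPM on a log axis, with short lines at the group means. Hspb1 and Hspe1 lie higher after RTX, and Hspa1b, Dnaja1, Dnajb1, Chordc1 and Bag3 lie lower. These 7 genes passed the threshold and were without overlap, as were 30.3% of all genes tested.

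Among 23 genes of endoplasmic reticulum folding and stress, 2 fell and none rose past the threshold in edgeR. DESeq2 called 8 of them: Herpud1 and Syvn1, and, with positive differences, Calr, Creld2, Hsp90b1, Manf, Pdia4 and Pdia6. Voom called 1. The median log2 difference was 0.17 against 0.01 for all genes, and 10 were higher and 5 lower at an unadjusted p under 0.05. Herpud1, which recruits the ubiquitin ligase for misfolded proteins, was at 223 CPM in both vehicle libraries and at 127, 133 and 106 CPM after RTX, a 1.81-fold fall (log2 -0.85 ± 0.10, edgeR adjusted p = 0.00598). Syvn1, that ubiquitin ligase (HRD1), was at 99.3 and 116 CPM after vehicle and at 74.6, 68.7 and 71.6 CPM after RTX (log2 -0.57, adjusted p = 0.0382). Os9, a lectin that delivers misfolded glycoproteins to the same ligase, fell from 366 and 358 CPM to 255, 267 and 258 CPM (log2 -0.46, adjusted p = 0.0419). Derl3, a channel component of the same route that is abundant in secretory cells, went the other way, from 4.32 and 5.39 CPM to 9.35, 11.3 and 10.7 CPM (log2 1.12 ± 0.17, adjusted p = 0.0382). Sel1l, the adaptor of the same ligase, had a log2 difference of -0.03 (adjusted p = 0.935). Os9 and Derl3 were outside the list, and both followed library state elsewhere, with log2 differences of -0.06 and 0.09 once state was a term. Os9 and Derl3 each lost the threshold whichever library was left out, and Syvn1 kept it only without vehicle replicate 1. Creld2 and Manf, secreted products of the unfolded protein response, had log2 differences of 0.61 (adjusted p = 0.0665) and 0.41 (adjusted p = 0.0971), and Hspa5 (BiP), the main folding chaperone, had 0.27 (adjusted p = 0.404).

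Cebpb, a transcription factor of the acute phase and of macrophage activation (chromosome 2, 167688915 to 167690418, plus strand), was at 43.4 and 42.3 CPM after vehicle and at 93.4, 95.3 and 86.7 CPM after RTX. The groups were far apart and tight, and Cebpb rose 2.17-fold (log2 1.12 ± 0.08, edgeR adjusted p = 0.000399). A difference in the same direction followed library state elsewhere. Cebpb was at 29.7 and 33.8 CPM in the state A libraries of subcutaneous RTX against 87.6 CPM in the other library of that group. In the wild-type chimeras it was at 65.2 against 87.9 CPM. With state as a term in the fit of 14 libraries the log2 difference was 0.23 and did not pass. The other 5 C/EBP genes had log2 differences of -0.18 to 0.31 and did not pass.

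None of 16 inflammatory cytokines and neutrophil chemokines passed the threshold, although 15 had a positive difference, with a median of 0.45 on the log2 scale and 7 higher at an unadjusted p under 0.05. DESeq2 called 3 of them (Il1b, Ccl7 and Cxcl3) and voom 0. Il1b, the pyrogenic cytokine of myeloid cells, had 14.2 and 17.3 CPM after vehicle and 25.8, 25.3 and 23.9 CPM after RTX. Its log2 difference was 0.68 and its edgeR adjusted p of 0.0506 lay just outside the threshold, while Megf10, at 0.0484, was the last gene inside it. Ccl7, a monocyte chemokine, had a log2 difference of 0.57 (adjusted p = 0.108), and Cxcl3, a neutrophil chemokine, 1.02 (adjusted p = 0.148). Ch25h, the cholesterol 25-hydroxylase of activated macrophages, was not in the list and passed: it was at 35.5 and 40.4 CPM after vehicle and at 59.1, 59.9 and 65.5 CPM after RTX, a 1.64-fold rise (log2 0.71 ± 0.09, adjusted p = 0.0149). It did not pass without vehicle replicate 1 or without RTX replicate 2.

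Several matrix and growth-factor genes were among those that fell. Ptn (pleiotrophin, a heparin-binding growth factor) was at 42.5 and 24.7 CPM after vehicle and at 2.54, 4.14 and 3.28 CPM after RTX, a 10.0-fold fall (log2 -3.32 ± 0.28, edgeR adjusted p = 0.00598). Lum (lumican, which organises collagen fibrils) fell from 29.6 and 20.5 CPM to 8.67, 8.64 and 10.6 CPM (log2 -1.41 ± 0.17, adjusted p = 0.0117). H19, an imprinted growth-related RNA, fell from 11.1 and 10.5 CPM to 0.681, 1.04 and 2.17 CPM (log2 -3.01 ± 0.38, adjusted p = 0.026). All 3 genes separated the groups widely and all 3 followed library state elsewhere: in subcutaneous RTX the state A libraries had 45.5 and 42.1 CPM of Ptn and the other library 2.55 CPM. H19 showed the same split there, with 14.4 and 10.6 against 1.35 CPM, as did Lum, with 28.2 and 23.7 against 7.01 CPM. With state as a term, Ptn had a log2 difference of 0.14, so its direction turned. Ptn also lost the threshold without RTX replicate 3, Lum without RTX replicate 1 or 2, and H19 without RTX replicate 2.

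Hmcn1 (hemicentin, a basement membrane protein) fell from 92.3 and 83.5 CPM to 42.9, 44.2 and 52.8 CPM (log2 -0.89 ± 0.10, adjusted p = 0.00851). Igfbp5, which binds insulin-like growth factors, fell from 592 and 643 CPM to 394, 404 and 380 CPM (log2 -0.64 ± 0.08, adjusted p = 0.0117). These genes were the more abundant ones of the group, and neither passed with state as a term. Hmcn1 lost the threshold without RTX replicate 2, and Igfbp5 without RTX replicate 1 or 2. Lrrc17 fell by 1.79 and Olfm2, an olfactomedin, by 1.51 on the log2 scale. Tenm3 and Robo2, receptors known from axon guidance, fell by 1.53 and 0.68. Lrrc17, Tenm3 and Robo2 followed library state elsewhere, and none of these and Olfm2 passed with state as a term. Olfm2, Tenm3 and Robo2 also lost the threshold when RTX replicate 2 was left out. Ccn5, a matricellular protein of smooth muscle, rose from 37.6 and 37.5 CPM to 58.3, 65.3 and 61.3 CPM (log2 0.73 ± 0.08, adjusted p = 0.00602). It did not pass with state as a term. Of 12 fibroblast and matrix genes Lum was the 1 that passed in edgeR, DESeq2 called Lum and Dcn, 4 were lower at an unadjusted p under 0.05, 11 had a negative difference, the median was -0.24, and Col1a1 and Col3a1, the main fibrillar collagens, had -0.31 and -0.18. Their summed level was 9046 to 9751 CPM after vehicle and 6924 to 8933 CPM after RTX. In bulk tissue, fewer cells of a type and less RNA per cell cannot be told apart.

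Cdkn2a and Cdk4, genes of the G1 checkpoint, were among those that fell. Cdkn2a, which encodes the tumour suppressors p16 and p19, fell from 6.82 and 5.57 CPM to 1.09, 2.27 and 1.64 CPM (log2 -1.88 ± 0.29, adjusted p = 0.0382). Cdk4, the G1 kinase that p16 inhibits, fell from 184 and 166 CPM to 108, 123 and 120 CPM (log2 -0.56 ± 0.09, adjusted p = 0.0382). Both followed library state elsewhere and both lost the threshold whichever library was left out. Their log2 differences were 0.45 and 0.05 with state as a term, against their direction in the experiment. Of 14 proliferation genes none passed the threshold in edgeR, 1 was higher at an unadjusted p under 0.05, DESeq2 and voom called 0, and the median was 0.06.

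Cdk4 lies on chromosome 10 (127063534 to 127067920, plus strand) in a stretch that holds 3 of the genes that fell. Os9 (127095650 to 127121131, minus strand) and Arhgef25, a guanine nucleotide exchange factor (127182525 to 127190083, minus strand), are its neighbours. Arhgef25 was at 81.0 and 72.3 CPM after vehicle and at 37.1, 41.9 and 39.6 CPM after RTX (log2 -0.94 ± 0.09, adjusted p = 0.00201), and at 76.7 and 71.4 against 30.8 CPM in subcutaneous RTX by library state. With state as a term its log2 difference was 0.0013. All 21 genes tested within 200 kb of Cdk4 were higher in intrathecal vehicle than in RTX, against 8417 of all 17360 genes tested. Of the 21, 11 had a mean of at least 10 CPM in the 5 libraries. Of the 11, 9 also had all 3 other state A libraries on the vehicle side, against 28.1% of all genes tested. By a mean of at least 0.3 on the log2 scale 7 did so, against 8.39% of all genes. Tspan31 overlaps Cdk4 on the opposite strand, so reads from the overlap cannot be told apart. The stretch was examined after its genes had been seen among the calls.

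**Figure D3:**
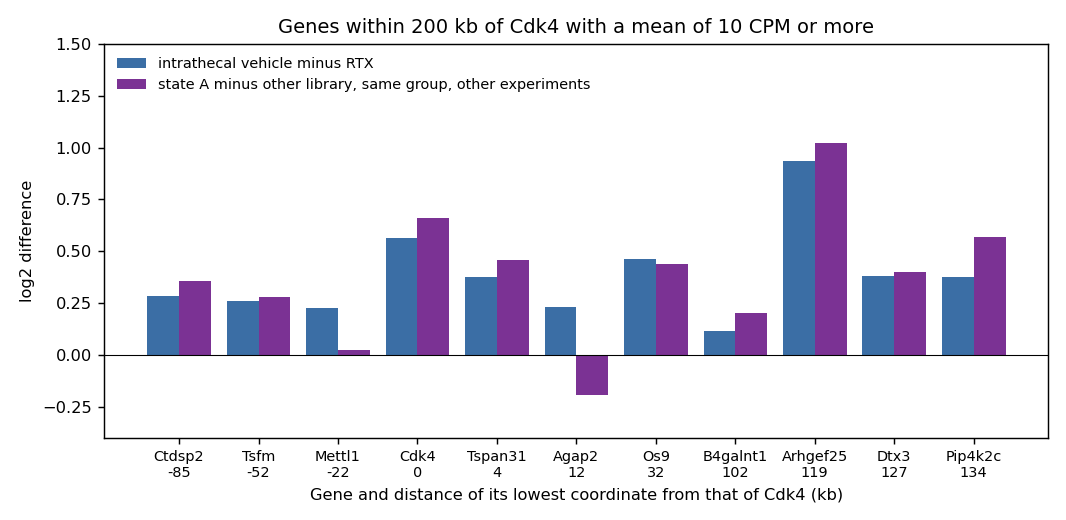
Log2 differences of the 11 genes within 200 kb of Cdk4 that had a mean of at least 10 CPM, ordered by position. One bar per gene gives intrathecal vehicle minus RTX and the other the mean difference between state A libraries and the other library of their group in the other experiments. All 11 are above 0 in the intrathecal experiment, and Arhgef25 and Cdk4 are highest in both.

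Copies of the chemokine gene Ccl21, which guides lymphocytes and dendritic cells into lymphatics, gave an all-or-none pattern. Ccl21d was listed at 0 in both vehicle libraries and at 28.1, 33.9 and 37.6 CPM in the RTX libraries (edgeR adjusted p = 2.03e-05). Ccl21b had 37.4 and 23.3 CPM in the vehicle libraries and was listed at 0 in all 3 RTX libraries (adjusted p = 0.0054). These copies are nearly identical in sequence and the counting can move all reads from one to the other, so no fold is given. Their sum was 37.4 and 23.3 CPM after vehicle and 28.1, 33.9 and 37.6 CPM after RTX, and these ranges overlap. Ccl21a, the third copy, had 60.4 and 39.1 CPM after vehicle and 49.6, 58.4 and 57.8 CPM after RTX, which also overlap. The assignment also varied within the other groups and did not follow library state: Ccl21b was above 0 in subcutaneous RTX replicates 1 and 3 and in subcutaneous vehicle replicate 1.

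**Figure D4:**
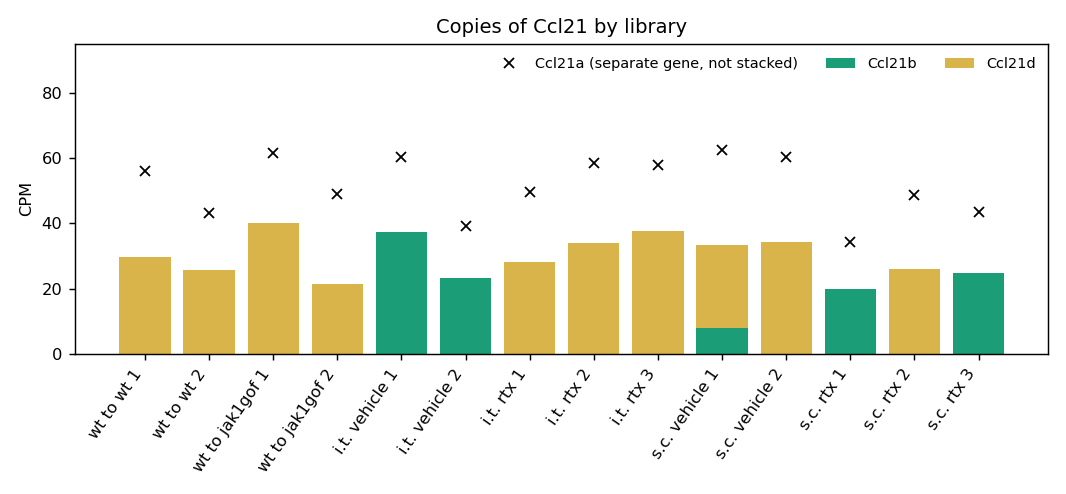
Ccl21 copies in all 14 libraries, in CPM. Stacked bars give Ccl21b and Ccl21d and crosses give Ccl21a. Ccl21b and Ccl21d replace each other between intrathecal vehicle and RTX, while the height of the stack stays between 19.9 and 40.1 CPM across the series.

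Further genes were higher after RTX. Prl2c2, a placental growth factor of the prolactin family that has near-identical copies, was at 0.273 and 0.362 CPM after vehicle and at 2.86, 3.16 and 4.22 CPM after RTX (log2 3.42 ± 0.41, adjusted p = 0.00598). Megf10, a phagocytic receptor, was at 1.0 and 1.31 CPM after vehicle and at 3.0, 4.74 and 4.71 CPM after RTX (log2 1.86 ± 0.31). These were low-level transcripts that stood higher in every state B library, those of other experiments included, than in any state A library. With state as a term Megf10 had a log2 difference of -0.22. Ppp1r14b, a phosphatase inhibitor, rose from 29.7 and 32.7 CPM to 52.4, 53.2 and 55.8 CPM (log2 0.80 ± 0.08, adjusted p = 0.0054). Ppp1r14b was lower in all 3 state A libraries of the other groups, and its log2 difference was 0.10 with state as a term. Ube2m, the NEDD8-conjugating enzyme, rose by 0.64, Basp1, a membrane-associated signalling protein, by 0.67, Arf6, a GTPase of membrane traffic, by 0.50, Adnp, a chromatin-associated factor, by 0.53, Gpcpd1, a choline-releasing phosphodiesterase, by 0.47 and Cdk2ap1 by 0.51. Ube2m, Basp1, Arf6 and Cdk2ap1 followed library state in the same way, and their log2 differences were 0.13, 0.04, 0.10 and 0.13 with state as a term. None of these rises, Adnp and Gpcpd1 included, passed with state as a term. Arf6, Adnp, Gpcpd1 and Cdk2ap1 lost the threshold whichever RTX library was left out. Ube2m and Basp1 lost it without RTX replicate 2. On the log2 scale, falls were also found for Foxo3, a stress-responsive forkhead factor (-0.51), Dedd2 (-0.94), Cacna1d, a calcium channel subunit (-0.60), and Mtmr4, a phosphoinositide phosphatase (-0.50). Ccdc117 (-0.72), Zfp9 (-0.74), Banp (-0.67), Scaper (-0.68), Nckap5 (-0.56) and Uspl1 (-0.55) fell too. All were without overlap, as were 30.3% of all genes tested. Each of these falls lost the threshold when RTX replicate 2 was left out, and none passed with state as a term. Foxo3, Cacna1d, Zfp9, Banp, Scaper and Uspl1 lost it whichever RTX library was left out.

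Rpph1, the RNA of ribonuclease P, rose from 6.46 and 7.61 CPM to 13.7, 16.3 and 12.3 CPM (log2 1.02 ± 0.16, adjusted p = 0.0419). It lost the threshold without RTX replicate 1 or 2 and with scaling by total counts. Values of 4 other transcripts without a long poly(A) tail are given beside it; they were chosen after their values had been seen, and none passed the threshold. An annotated ribosomal RNA gene had 6650 and 9402 CPM after vehicle and 13933, 13851 and 14455 CPM after RTX (adjusted p = 0.0573). The signal recognition particle RNA Rn7s1 had 130 and 189 CPM after vehicle and 322, 409 and 303 CPM after RTX (adjusted p = 0.107), and Rn7sk had 12.8 and 18.9 CPM after vehicle and 33.5, 43.4 and 27.2 CPM after RTX (adjusted p = 0.177). Rmrp had 3.59 and 5.75 CPM after vehicle and 9.44, 16.4 and 7.26 CPM after RTX (adjusted p = 0.32). In all 5, Rpph1 included, the RTX libraries lay above the vehicle libraries, although mRNA had been enriched with oligo-dT beads. The groups were free of overlap in 30.3% of all genes tested. Such transcripts also varied within a group elsewhere: the ribosomal RNA gene had 8511 and 16778 CPM in the 2 subcutaneous vehicle libraries. The part of the difference in these 5 transcripts in the other results was not tested.

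Type 2 genes, the known arm of the response to this allergen, did not pass the test. None of 5 type 2 cytokines tested passed the threshold in edgeR, none was at an unadjusted p under 0.05, and DESeq2 and voom called 0. Il5, the eosinophil growth factor, had 3.59 and 5.26 CPM after vehicle and 5.58, 4.79 and 5.0 CPM after RTX, a log2 difference of 0.23 (95% confidence interval -0.26 to 0.72). Il13, which drives mucus, had 6.05 and 8.79 CPM after vehicle and 7.81, 6.86 and 7.26 CPM after RTX, with an interval of -0.43 to 0.42. The groups overlapped in both genes. Il4, the cytokine of IgE switching, had an interval of -0.63 to 0.91, and Areg (amphiregulin, a repair factor of innate lymphoid cells) one of -0.10 to 1.33. The intervals of Il4, Il5, Il13 and Areg all include 0, which does not show that their levels were equal.

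Il33, the alarmin of the epithelium, had 490 and 450 CPM after vehicle and 615, 570 and 809 CPM after RTX. The RTX libraries were all higher. The log2 difference was 0.52 (interval 0.18 to 0.86) with an edgeR adjusted p of 0.266, while DESeq2 gave 0.037. Ccl24 (eotaxin-2, an eosinophil attractant of macrophages) had 131 and 169 CPM after vehicle and 275, 235 and 222 CPM after RTX, a log2 difference of 0.72 (interval 0.43 to 1.01). It did not pass in edgeR (adjusted p = 0.0734) but passed in DESeq2. Ccl24 was also lower in all 3 state A libraries of the other groups. Those log2 differences were -2.06 in the wild-type chimeras and -0.11 and -0.49 in subcutaneous RTX. Between the 2 subcutaneous vehicle libraries, neither of state A, it differed by -1.44 (replicate 1 minus 2). The part of library state in the Ccl24 difference was not tested. Ccl11 (eotaxin-1) had a log2 difference of 0.19 (interval 0.01 to 0.37) and Ccl6 one of 0.48 (adjusted p = 0.141). Of 8 type 2 chemokines tested, none passed in edgeR, 4 were higher at an unadjusted p under 0.05, DESeq2 called 2 (Ccl24 and Ccl6) and voom 0.

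Products of alternatively activated macrophages had positive differences that did not pass. Retnla, a resistin-like secreted protein, had 0.30 (interval 0.06 to 0.53), Arg1 (arginase) had 0.43 (interval -0.24 to 1.10) and Chil3, a chitinase-like protein, had 0.26 (interval -0.17 to 0.69). Of 9 such genes tested, 3 were higher at an unadjusted p under 0.05, and neither DESeq2 nor voom called any (0 each). For the mucin Muc5ac the difference was -0.04 (interval -1.04 to 0.96), and for Clca1, a secreted goblet-cell protein, -0.02 (interval -0.55 to 0.51). Of 13 goblet cell genes none passed in edgeR, 2 were higher at an unadjusted p under 0.05, DESeq2 called 1 (Slc26a4) and voom 0. Il17rb, the IL-25 receptor of type 2 innate lymphoid cells, had 9.09 and 9.38 CPM after vehicle and 6.54, 4.54 and 5.0 CPM after RTX. All RTX libraries were lower, with a log2 difference of -0.77 (interval -1.19 to -0.35) and an adjusted p of 0.158.

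**Figure D5:**
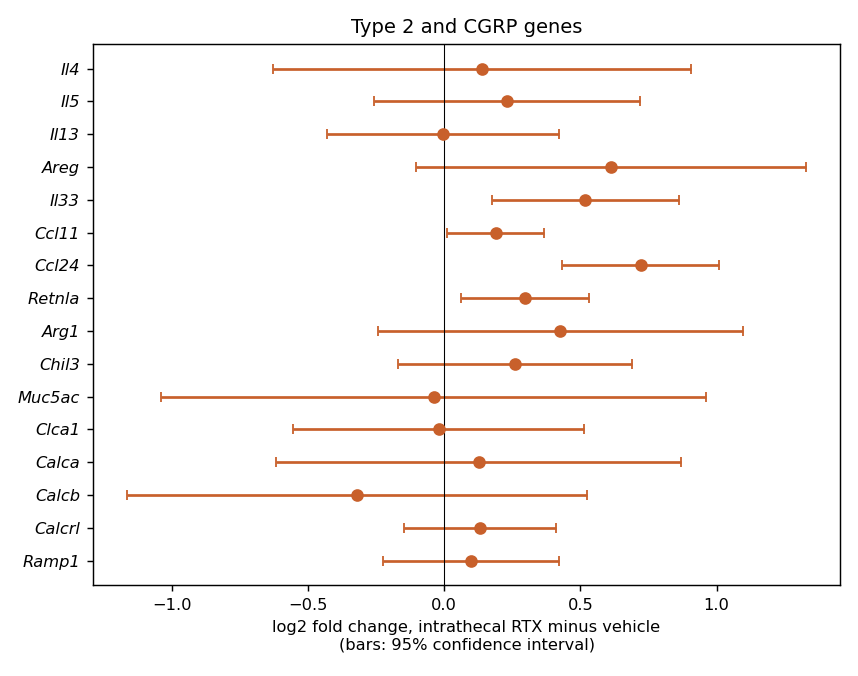
Log2 difference, intrathecal RTX minus vehicle, for type 2 and CGRP genes. Points are edgeR estimates from 3 RTX and 2 vehicle libraries, and bars are 95% confidence intervals. The intervals of Il33, Ccl11, Ccl24 and Retnla lie above 0, although none of these genes passed the adjusted threshold, and those of the other 12 genes include 0.

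Nerve-related transcripts were sparse in lung RNA. Of 26 sensory neuron and nerve genes, 9 were abundant enough to be tested, none passed in edgeR, 2 were higher and 1 lower at an unadjusted p under 0.05, and DESeq2 and voom called 0. Calca, which encodes CGRP and calcitonin and is also made by neuroendocrine cells of the airway, had 3.14 and 2.99 CPM after vehicle and 2.59, 2.37 and 4.88 CPM after RTX (log2 0.13, interval -0.62 to 0.87). Calcb, the second CGRP gene, had a log2 difference of -0.32 (interval -1.17 to 0.52). The CGRP receptor genes Calcrl and Ramp1 had 0.13 (interval -0.15 to 0.41) and 0.10 (interval -0.23 to 0.42). Piezo2, a mechanosensitive channel, had -0.32 (adjusted p = 0.303), and Vipr2, a receptor for the peptide VIP, -0.66 (adjusted p = 0.183). Lists of Schwann cells (median -0.10) and neuroendocrine cells (median -0.45) had no member past the threshold.

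Across cell types, 44 of the 51 gene lists had no member past the threshold. Their medians ran from -0.45 to 0.46 on the log2 scale. Over their 475 memberships tested, 60 were higher and 30 lower at an unadjusted p under 0.05, and DESeq2 called 17 and voom 1. Over all genes tested, 5.85% were higher and 5.63% lower at that p, and 8943 of 17360 differences were positive. T cell genes had 14 of 15 positive differences and a median of 0.39, with Ctla4, an inhibitory receptor, at 0.77 (adjusted p = 0.141). Neutrophil genes had 7 of 8 positive differences and a median of 0.36, with Csf3r, the G-CSF receptor, at 0.50 (adjusted p = 0.142), and eosinophil genes had 8 of 9 and a median of 0.38. The summed levels of these lists overlapped between groups for T cells (156 to 172 CPM after vehicle, 154 to 256 CPM after RTX) and eosinophils (228 to 264 and 223 to 286 CPM). Those of neutrophils did not (102 to 107 and 111 to 143 CPM). Among single genes, 30.3% of all tested were without overlap. Alveolar type 2 cells had a median of 0.10, alveolar type 1 cells -0.13, club cells -0.11, ciliated cells -0.06 and endothelium 0.07. Markers of neighbouring tissues were present and spread widely: heart muscle genes summed to 168 to 270 CPM after vehicle and 158 to 368 CPM after RTX, and fat genes to 68.1 to 70.9 and 37.5 to 72.7 CPM. The part of these tissues in the results was not tested.

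The intrathecal effect was compared with the subcutaneous one as a contrast in 1 fit of 10 libraries, which share no control. Of 17972 genes tested, 10 passed the edgeR adjusted p threshold (0.0556%), 5 in each direction. Hspb1 had the largest difference among the 9 named genes: the log2 effect was 1.92 for intrathecal and 0.26 for subcutaneous RTX, a difference of 1.66 ± 0.23 (adjusted p = 0.0422). Hspe1 differed by 0.76 and Dnaja1 by -1.02 (adjusted p = 0.039 for both). These 3 chaperone genes thus differed between the experiments by the test of the difference itself. That fit had no term for library state. Intrathecal vehicle was state A and intrathecal RTX state B. Subcutaneous vehicle was state B and C, and subcutaneous RTX was state C, A and A. The part of library state in these differences was not tested. Syvn1 differed by -1.02 (effects -0.57 and 0.44) and Mtmr4 by -0.77.

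For Cybb and 3 further genes the intrathecal effect alone did not pass the threshold. Cybb, the catalytic subunit of the phagocyte NADPH oxidase, had intrathecal values of 78.4 and 71.8 CPM after vehicle and 72.8, 74.0 and 69.6 CPM after RTX. In the subcutaneous experiment it had 64.4 and 64.2 CPM after vehicle and 115, 101 and 113 CPM after RTX, and the effects differed by -0.80 (adjusted p = 0.039). Ly6c1, Ctla2a and Ecscr, genes known from endothelium, had effects of 0.48, 0.27 and 0.22 in the intrathecal experiment and of -0.50, -0.55 and -0.42 in the subcutaneous one. The effects differed by 0.97, 0.81 and 0.63. The count of 10 fell to 0 or 1 when any 1 intrathecal library was left out, and to 0 without subcutaneous vehicle replicate 1. It was 90 without subcutaneous RTX replicate 1, so it rests on single libraries. Doses, routes and days of RTX differed between these experiments, and so did the library states of the groups. The part of each was not tested.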

How the data were processed

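Lung RNA of 5 libraries (3 intrathecal RTX, 2 intrathecal vehicle) was analysed, with 9 further libraries of the series for the contrasts named. Per the labels, oligo-dT beads enriched mRNA, and libraries followed the NEBNext Ultra II protocol. Per the submitters' processing notes, the tools included FastQC 0.11.8, Trim Galore 0.6.6, STAR 2.7.5b and Salmon 1.2.1, with the build GRCm38. Neither annotation release nor strand setting is given in the sources used here. In the deposited tables there is 1 estimated count per gene and library for 54347 genes, and no further columns were present. Of these gene identifiers, 54094 were in GENCODE M21, from which positions were taken.

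Estimated counts were rounded and tested with edgeR 4.0.16 under R 4.3.3 (filterByExpr at a count of 10 and a total of 15, TMM factors, robust quasi-likelihood fit, Benjamini-Hochberg adjustment over all genes tested). CPM values use the total count of each library, and confidence intervals are 95%. The fit was tested on simulated data. The floor of 3 counts covers counting error alone, since without molecular identifiers PCR duplicates cannot be told from separate molecules. Replicates differed by more than sampling noise (chi-square per degree of freedom 8.91 to 15.3, Pearson's r across genes 0.991 to 0.993).

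The members, the lists and the library states were chosen with earlier results of these data known, so no list was tested as a set. Named were all genes past the threshold without a predicted-gene or pseudogene name, up to 2 members with the smallest p of lists with none, 16 fixed genes, and up to 8 genes per direction for the difference between experiments; 1 gene past the threshold is not reported here. Alternatives covered scaling (total counts or DESeq2 size factors), low-count filters, DESeq2 1.42.0, limma 3.58.1 voom, no robust prior, 10 or 14 libraries in 1 fit, library state as a term, a replicate block and leaving out each library. Promoters came from the RefSeq table of GRCm38.p6. Figures were drawn with matplotlib 3.10.9.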

Additional observations from a re-analysis of the deposited data

Results flagged for a closer look

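The intrathecal effect of RTX differed from the subcutaneous one past the threshold in 10 genes of the 10-library contrast (edgeR, adjusted p of 0.05). The contrast had no term for library state, which was unevenly spread over the groups. On the log2 scale, intrathecal minus subcutaneous, the difference was 1.66 for Hspb1, 0.97 for Ly6c1, 0.81 for Ctla2a, 0.76 for Hspe1 and 0.63 for Ecscr. It was -1.02 for Dnaja1, -1.02 for Syvn1, -0.80 for Cybb and -0.77 for Mtmr4. The tenth, Gm38025, has a predicted-gene name and a fitted difference of -10.02, which depends on the prior count and is no bound: it was below 1 CPM in each of the 14 libraries and was listed at 0 in both subcutaneous vehicle libraries.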

How the results depend on the processing

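The intrathecal comparison gave 54 genes, and 53, 48, 51 and 37 with DESeq2 size factors, total counts, a filter of 1 CPM in 2 libraries and voom. It gave 655 without a low-count filter, 247 with DESeq2, 34 without the robust prior, 19 with 10 libraries in 1 fit, 7 with 14 libraries, 5 with library state as a term, and 19 to 40 when 1 library was left out (a lone vehicle library was assumed to vary like the other group). The difference between experiments gave 10 genes, 147 without a filter, 317 with DESeq2, and 0 to 90 when 1 library was left out. Of the 51 named genes, 14 kept the threshold in all 5 leave-one-out fits, and none (0) kept it in every other alternative. Turned in direction with library state as a term were Arhgef25 (0.0013), Ptn (0.14), Cdkn2a (0.45), Cdk4 (0.046) and Megf10 (-0.22); the cause was not tested. Replicate numbers did not pair the libraries: deviations of same-numbered libraries correlated at -0.25 and -0.19, and a fit with the replicate number as a block gave 50 genes, and 7 for the difference. With 2 vehicle libraries, all of state A, neither depth nor replication can separate treatment from state.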

Other observations

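Il10, an anti-inflammatory cytokine outside the lists and chosen after its values were seen, had 0.637 and 0.770 CPM after vehicle and 3.22, 3.01 and 1.93 CPM after RTX. All RTX libraries were higher, with a log2 difference of 1.95 and an edgeR adjusted p of 0.0645. Mt1, a metallothionein, and Angptl4, a lipase inhibitor, both known glucocorticoid targets, had log2 differences of 1.04 (adjusted p = 0.0756) and 1.01 (adjusted p = 0.0855). The list of 13 such targets had 5 positive and 8 negative differences, a median of -0.06, and no member past the edgeR threshold (3 higher and 2 lower at an unadjusted p under 0.05). DESeq2 called 3 of the 13 (Mt1, Angptl4 and, with a log2 difference of -1.90 in edgeR, Zbtb16) and voom 1.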
